A study of Mus musculus with 2 samples.

Results

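The immediate early, AP-1 and CCN genes followed here were Jun, Fos, Fosb, Egr1, Ier2, Zfp36, Atf3, Jdp2, Ccn1 and Ccn2. They were found as every probe set that the platform annotation assigned to exactly 1 of these 10 symbols, which gave 13 probe sets for 10 genes among 20380 probe sets for 12393 genes. The genes were chosen with their differences between the arrays known, so their own values are a description and carry no test. RNA of mouse embryonic stem (ES) cells was hybridised to 2 single-channel arrays, 1 for an Id1 knockout culture and 1 for a wild-type culture. Both cultures were self-renewing on gelatin, with serum and the cytokine LIF (leukaemia inhibitory factor) in the medium. The labels name neither the strain, nor the line or clone, nor the part of Id1 that was removed. Id1 itself, a helix-loop-helix protein that lacks a DNA-binding domain, read 461 in the knockout against 1045 in the wild type, 2.30-fold lower, so signal remained on the knockout array and checks the labels only in part.

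Immediate early genes are switched on within minutes of a growth factor, stress or adhesion signal, without new protein synthesis. ERK signalling acts through serum response factor (SRF) and its ETS partners on Fos and Egr1, and JNK phosphorylates Jun. Jun and Fos proteins pair through leucine zippers into AP-1, which binds DNA as a dimer, whereas Atf3 and Jdp2 are related leucine zipper proteins that often act as repressors. Ccn1 and Ccn2 encode secreted matrix-associated proteins that respond to serum, to actin tension through SRF and its cofactor MRTF, and to YAP and TAZ acting through TEAD factors. In mouse ES cells, ERK activity is known to favour exit from the naive state.

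Every value was a deposited intensity in arbitrary units, with no replicate in either genotype. Culture, handling, clone and array therefore cannot be told apart from genotype, and no test between genotypes was possible. Differences are knockout minus wild type on the log2 scale after each array's median was subtracted, and folds are taken from them. The probe set with the highest mean over both arrays stood for its gene. The gene entered the counts when its brighter value reached that array's median, 155 for the knockout or 152 for the wild type, and it was called higher or lower at 2-fold or more. Values at or under a floor (48.4 for the knockout array, 47.6 for the wild-type array) were set to it. No probe set of the 10 genes was at the floor. The only available error was technical: over 2567 genes with 2 or more passing probe sets, the log2 differences of a gene's probe sets had a median SD of 0.22.

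Of the 10 genes, 7 passed the brightness filter, and 4 of them were at least 2-fold higher in the knockout (Jun, Zfp36, Ccn1 and Ccn2), 1 was at least 2-fold lower (Jdp2) and 2 were neither (Egr1 and Ier2). The same calls were made for 3.92% (higher) and 3.92% (lower) of all 7369 genes that passed, or 7.84% in either direction. These shares stand beside the count for reference, since the genes had been chosen on this contrast. Fos, Fosb and Atf3 stayed below the median of both arrays. The higher calls therefore lay in 1 AP-1 subunit, the mRNA decay factor and both CCN genes, while Fos, Fosb and Egr1 showed no 2-fold difference.

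**Figure D1:**
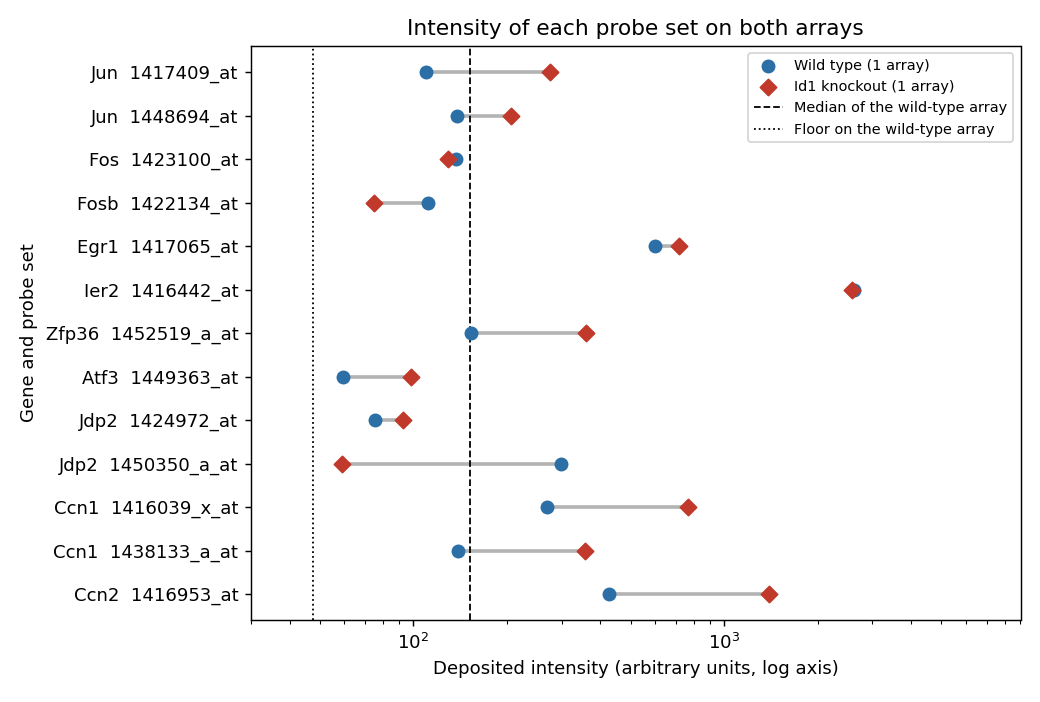
Deposited intensity (log axis) of the 13 probe sets on the wild-type array (circles) and the knockout array (diamonds), 1 array each, with the median and the floor of the wild-type array as vertical lines. The widest gaps are those of Jdp2 (298.6 in the wild type against 59.1 in the knockout) and Ccn2 (427 against 1391), while Ier2 and Fos nearly coincide.

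Jun, the AP-1 subunit that can bind DNA as a homodimer, was measured by 2 probe sets, both listed with the same RefSeq transcript. Probe set 1417409_at read 275 in the knockout against 110.0 in the wild type, 2.46-fold higher (log2 difference 1.30). Probe set 1448694_at read 207 against 138, 1.47-fold higher (log2 difference 0.55). Both were higher on the knockout array, but only the first reached 2-fold. The gap between them was 0.75 on the log2 scale, and among 1720 genes with exactly 2 passing probe sets the median gap was 0.28 and 12.7% had a wider one. With the mean of the 2 probe sets the log2 difference of Jun was 0.93, which ends the 2-fold call.

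Fos, the partner that needs a Jun protein to bind DNA, read 130 in the knockout against 137 in the wild type (log2 difference -0.10). Fosb, its close relative, read 74.7 against 111 (log2 difference -0.60). Neither reached the median of its array, so neither entered the counts. Neither Fos nor Fosb was higher on the knockout array, where both Jun probe sets were.

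The 2 repressor-type leucine zipper genes read in opposite directions. Atf3, a stress-induced ATF factor, read 98.5 in the knockout against 59.4 in the wild type (log2 difference 0.70), below the median of both arrays. Jdp2, the Jun dimerization protein that represses AP-1 sites, read 59.1 in the knockout against 298.6 in the wild type with probe set 1450350_a_at. That is 5.13-fold lower (log2 difference -2.36), the 14th lowest of 7369 genes. The knockout value lay just above the floor of 48.4, and with the floor at the 40th percentile the log2 difference was -1.58. Its second probe set, 1424972_at, listed with an expressed sequence tag rather than with the RefSeq transcript, read 92.3 against 75.5 (log2 difference 0.27) and stayed below the filter. The 2 probe sets thus did not go the same way, and the lower call for Jdp2 rests on the first.

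Egr1, a zinc finger factor induced by ERK through SRF, read 715 in the knockout against 598 in the wild type (log2 difference 0.23). Ier2, a nuclear protein of the early response, read 2584 against 2611 (log2 difference -0.04). These values differed by little more than, or less than, the median SD of 0.22 between probe sets of 1 gene. Both genes lay well above the array medians, so a 2-fold difference would have been counted.

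Zfp36 encodes tristetraprolin, which binds AU-rich elements and speeds the decay of short-lived messengers, those of cytokines and immediate early genes among them. Its probe set 1452519_a_at read 359 in the knockout against 153 in the wild type, 2.30-fold higher (log2 difference 1.20). The wild-type value lay at the array median.

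Both CCN genes were higher by every probe set. Ccn1, also called Cyr61, read 765 in the knockout against 269 in the wild type with probe set 1416039_x_at, 2.79-fold higher (log2 difference 1.48). Its other probe set, 1438133_a_at, read 356 against 139, 2.51-fold higher (log2 difference 1.33), a gap of 0.15 that is narrower than the median of 0.28. The x in the first name marks probes that can also match other transcripts. Ccn2, also called Ctgf, read 1391 against 427 with its single probe set, 3.20-fold higher (log2 difference 1.68). It was the 94th highest of 7369 genes, Ccn1 the 127th, Jun the 170th and Zfp36 the 195th.

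**Figure D2:**
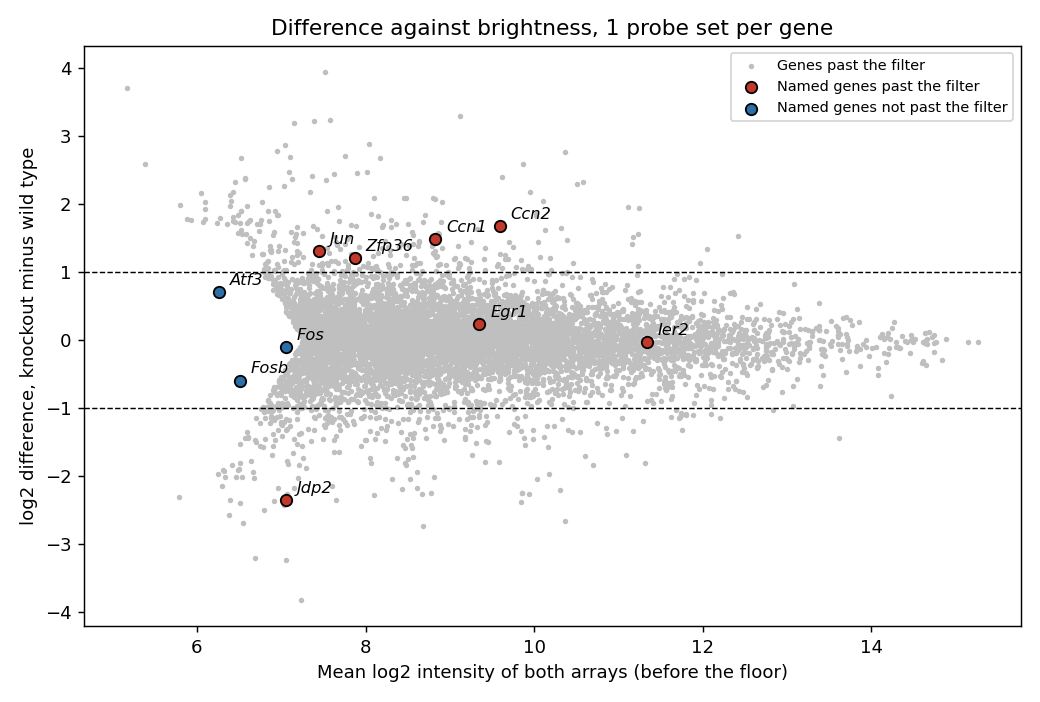
The log2 difference, knockout minus wild type, of each gene against its mean log2 intensity before the floor, 1 probe set per gene, with 7369 genes past the filter in grey, the 10 named genes coloured and dashed lines at 2-fold. Jun, Zfp36 and Jdp2 lie toward the dim end, where the cloud is wide, and Ccn1 and Ccn2 lie where it is narrower.

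Brightness sets how common a 2-fold difference was. The genes past the filter were put into 4 brightness classes of equal size. In the dimmest class, which held Jun, Zfp36 and Jdp2, 8.36% of genes were called higher and 7.22% lower. In the second class, which held Ccn1, 3.91% were higher, and in the third, which held Ccn2 and Egr1, 2.44% were. A gene that is below the median on 1 array, as Jun was in the wild type and Jdp2 in the knockout, passes the filter through its brighter array alone. The SD of the log2 difference over genes was 0.79 in the dimmest class and 0.48 in the third.

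The promoters of Jun, Zfp36 and Ccn1, all higher in the knockout, are shown beside that of Fos, which was not, to set the letters that signal-responsive factors read side by side. Each is the run of 250 bases before the RefSeq start, 5′ to 3′ along the gene's strand, from assembly GRCm38.p6. The table held promoters of 7 of the 10 genes. Capitals mark matches to a CArG box, TGACATCA, GGAATG or TATAAA. The CArG box, the SRF motif, was searched as CC, then 6 letters that are each A or T, then GG. TGACATCA is the Jun and ATF site of the Jun promoter. GGAATG is the TEAD motif, CATTCC on the other strand, and TATAAA is the TATA box. The Jun run lies at chr4:95052223-95052472 on the minus strand, the Zfp36 run at chr7:28379229-28379478 on the minus strand, the Ccn1 run at chr3:145649986-145650235 on the minus strand and the Fos run at chr12:85473640-85473889 on the plus strand.
Jun: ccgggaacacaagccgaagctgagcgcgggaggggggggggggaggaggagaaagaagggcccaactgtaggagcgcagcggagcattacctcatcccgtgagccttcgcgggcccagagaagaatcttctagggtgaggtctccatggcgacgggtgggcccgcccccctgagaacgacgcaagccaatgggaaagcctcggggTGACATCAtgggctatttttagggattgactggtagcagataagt
Zfp36: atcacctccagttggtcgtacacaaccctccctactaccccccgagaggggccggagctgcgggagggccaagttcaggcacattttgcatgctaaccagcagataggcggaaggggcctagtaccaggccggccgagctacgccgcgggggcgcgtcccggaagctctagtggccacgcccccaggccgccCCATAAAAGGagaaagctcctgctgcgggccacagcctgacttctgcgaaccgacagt
Ccn1: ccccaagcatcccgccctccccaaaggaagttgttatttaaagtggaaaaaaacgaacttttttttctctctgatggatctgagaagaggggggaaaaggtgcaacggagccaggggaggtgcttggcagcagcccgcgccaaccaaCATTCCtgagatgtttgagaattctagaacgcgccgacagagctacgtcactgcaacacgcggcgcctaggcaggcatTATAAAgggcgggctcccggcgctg
Fos: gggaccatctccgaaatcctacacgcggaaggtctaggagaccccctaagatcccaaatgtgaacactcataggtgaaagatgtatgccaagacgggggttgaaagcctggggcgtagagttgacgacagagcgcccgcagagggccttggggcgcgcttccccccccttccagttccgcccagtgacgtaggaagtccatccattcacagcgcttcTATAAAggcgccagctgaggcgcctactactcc

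The 4 runs carried different letters. Zfp36 held a CArG box at -58 to -49 from the start, a motif found on either strand in 1.47% of 32851 promoters of the same length. Jun held TGACATCA at -45 to -38, present in 2.93% of all promoters. Ccn1 held the TEAD motif at -103 to -98, present in 12.6%, and a TATA box at -25 to -20. The TEAD motif was also in 1 of the 3 runs of Jdp2, the gene that was lower, at -81 to -76. Fos held a TATA box at -33 to -28, present in 12.4% of all promoters. The core letters TGACG, which are part of the longer CRE, TGACGTCA, were in the runs of Fos, at -129 to -125 and -66 to -62, Fosb, Atf3, Ccn1 and 1 of the 3 Jdp2 starts, against 17.8% of all promoters. The full CRE (1.55% of all promoters), the AP-1 site TGACTCA (4.46%) and the EGR motif GCGTGGGCG (0.536%) were in none of the 9 runs searched. The ETS core GGAAG, in 64.1% of all promoters, was in the runs of 6 of the 7 genes, Jun being the exception, and the E-box CANNTG, in 66.2%, in those of 5. No motif was shared by Jun, Zfp36 and Ccn1 and missing from Fos. Among the 7811 promoters of genes past the brightness filter some shares were different, with 27.4% for TGACG, 2.70% for the full CRE, 1.14% for the EGR motif, 6.21% for the TATA box and 1.33% for TGACATCA. A match is a description of letters and not of binding, and elements farther from the start were not searched.

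**Figure D3:**
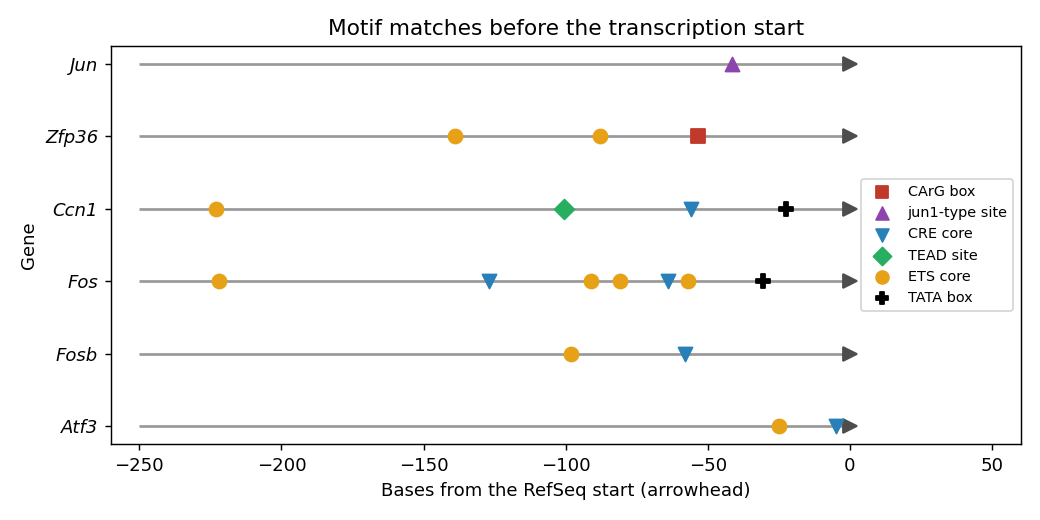
Positions of motif matches, on either strand, in the 250 bases before the RefSeq start (arrowhead) of 6 of the genes, with distance from the start in bases on the horizontal axis and 1 symbol for each motif. The CArG box appears only on the Zfp36 line, the TEAD motif only on the Ccn1 line and the TGACATCA site only on the Jun line; the Jdp2 starts, 1 of which holds a TEAD motif, are not drawn.

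Other genes of the same pathways were taken from lists and counted by the same rule, beside a median log2 difference of -0.01 and 3.92% called in each direction over all genes past the filter. Among the AP-1 and Maf partners, none of 6 passing genes was 2-fold higher and 1 was lower, with a median of 0.14. Junb read 329 in the knockout against 259 in the wild type (log2 difference 0.32), Jund 2815 against 2550 (0.12) and Fosl2 176 against 154 (0.17). None of these Jun and Fos relatives reached 2-fold. Fosl1, which encodes the Fos relative Fra-1, read 147 against 83.7 (log2 difference 0.79) and did not pass the filter. The member that was lower was Batf2, a leucine zipper protein that pairs with Jun, at 33.2 in the knockout, under the floor, and 250.7 in the wild type, at least 5.27-fold lower. None of 10 passing ATF and CREB factors was past 2-fold, with a median of -0.02 and a range from -0.77 (Atf5) to 0.38 (Atf2). The other passing probe sets of Atf2 went the other way, at -0.14, -0.19 and -0.36.

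Of 34 measured genes in a list of other immediate early genes, 26 passed, 2 were at least 2-fold higher and none was lower, with a median of 0.03. Rhob, a small GTPase of the early response that acts on actin, read 1015 in the knockout against 367 in the wild type, 2.72-fold higher. Arc, the activity-regulated cytoskeletal gene, read 164 against 22.8, under the floor, at least 3.38-fold higher. Arc passed the filter through the knockout array alone. The other 24 passing genes stayed within 2-fold, from Klf2 (log2 difference -0.80) to Klf6 (0.96) and Egr3 (0.93), with Myc at 0.24 and Dusp1 at -0.25, and 15 of the 26 were above 0. Klf6, a zinc finger factor, had 1.28 and 0.88 with its other passing probe sets, and with the mean of passing probe sets 3 genes of this list were called higher. With the floor at the 40th percentile, 1 gene of this list was called higher.

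Egr1 protein is held in check by the corepressors Nab1 and Nab2. Nab2 read 39.9 in the knockout, under the floor, and 194 in the wild type, at least 4.07-fold lower. Nab1 read 285 against 179 (log2 difference 0.65), and 0.14 with its other passing probe set. The call for Nab2 was lost with the floor at the 40th percentile.

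Among the relatives of Zfp36 and the mRNA decay machinery, none of 14 passing genes was past 2-fold, with a median of 0.13. Zfp36l2, a paralog that also binds AU-rich elements, read 567 in the knockout against 302 in the wild type (log2 difference 0.89), and Zfp36l1 read 1012 against 969 (0.04). In the list of ERK, JNK and p38 kinases, 1 of 13 passing genes was higher and none was lower, with a median of -0.02. The gene that was higher was Mapkapk2, the kinase downstream of p38 that phosphorylates tristetraprolin. It read 362 in the knockout against 95.8 in the wild type, 3.72-fold higher. Mapkapk2 passed the filter through the knockout array alone, and with the filter at the 75th percentile it was no longer called. The JNK gene Mapk8 read 498 against 490, and 204 against 144 (log2 difference 0.47) with its other passing probe set, while Mapk9 read 429 against 427. The lowest values of the list were those of the X-linked Raf kinase gene Araf (log2 difference -0.96) and of the second probe set of Map2k2, a kinase that activates ERK (-1.32, with -0.44 for the probe set used).

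Of the other CCN genes, Ccn5 (Wisp2) read 159 in the knockout against 77.9 in the wild type, a log2 difference of 1.00 at the edge of the call. It passed the filter through the knockout array alone, and under 3 alternative settings it was no longer called. Ccn3 (Nov) read 47.3 against 65.8 and Ccn4 (Wisp1) 14.8 against 11.3, both below the filter.

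For the SRF arm, the factors and their targets read differently. None of 5 passing genes for SRF and its cofactors was past 2-fold, with a median of 0.21 and a range from 0.15 to 0.27. Srf itself read 490 in the knockout against 410 in the wild type (log2 difference 0.23), and 1.04 with its other probe set. In the list of actin and MRTF-SRF target genes, by contrast, 11 of 20 passing genes were called higher, none lower, and 19 were above 0, with a median of 1.10. Of the called genes, Myl9, Cnn1, Itga5 and Thbs1 were below the wild-type median and passed the filter through the knockout array alone. This list too was chosen with earlier results of these data known, so its count is a description. The 4 highest of the list were Tagln (9.76-fold), Myl9 (9.33-fold), Tpm1 (5.99-fold) and Cnn1 (at least 5.03-fold), all of the contractile actin apparatus. Tpm1 had log2 differences of 2.29 and 1.18 with its other passing probe sets, against 2.58 with the one used. The wild-type value of Myl9, 54.4, lay just above the floor of 47.6. Actb, the main cytoplasmic actin gene, had a log2 difference of 0.12. With the filter at the 75th percentile, 7 genes of the list were called higher.

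For the YAP and TEAD arm, 2 of 14 passing genes of the Hippo pathway were at least 2-fold higher and none was lower, with a median of 0.48. They were Limd1, an adaptor protein that inhibits LATS kinases (374 in the knockout against 157 in the wild type, 2.35-fold), and Tead2, the TEAD factor of early embryos (705 against 296, 2.34-fold). Limd1 had a log2 difference of 0.89 with its other passing probe set, under 2-fold. Wwc2 had 0.80 with the probe set used and 1.30 with its other passing one. With the mean of passing probe sets, 3 genes of the list were called higher. Of the 14 passing genes, 11 were above 0. Mob1a was below 0 with each passing probe set (-0.80, -0.27 and -0.74). Yap1 read 2484 against 1459 (log2 difference 0.74) and 0.44 with its other probe set. Without the brightness filter the median of the list was 0.17. Among 8 passing YAP and TAZ target genes other than Ccn1 and Ccn2, 2 were higher and 1 was lower, with a median of 0.13. Igfbp3 (555 against 84.0, 6.50-fold) and Amotl2 (686 against 315, 2.14-fold) were higher, and Myof was lower (28.4, under the floor, against 309, at least 6.50-fold). Igfbp3 passed the filter through the knockout array alone, and Myof through the wild-type array alone. Ankrd1, a much used target of YAP, read 44.5 against 60.9 and did not pass the filter.

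**Figure D4:**
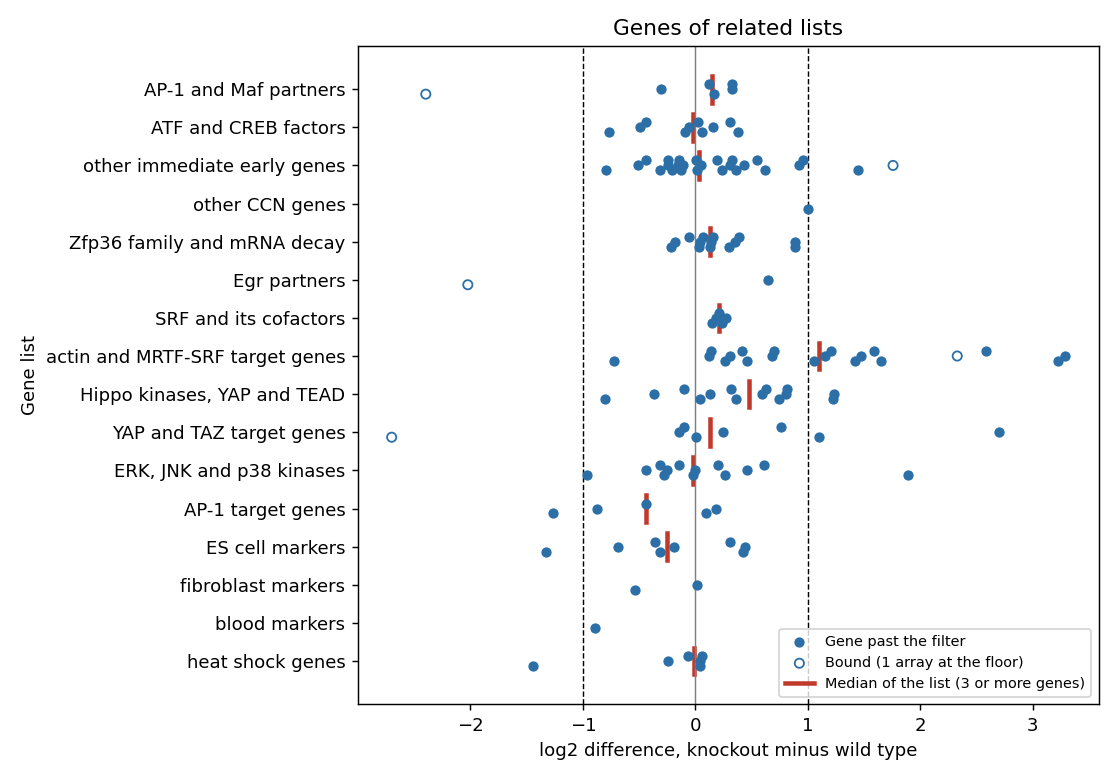
The log2 difference, knockout minus wild type, of each gene past the filter in each list, with 1 point per gene, open circles for bounds, red bars for medians of lists with 3 or more passing genes and dashed lines at 2-fold. The actin and MRTF-SRF targets sit mostly to the right, with a median of 1.10, while the other immediate early genes sit around 0, with a median of 0.03.

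Of 12 measured AP-1 target genes, 5 passed, none was higher and 1 was lower, with a median of -0.43. Timp1, an X-linked inhibitor of metalloproteinases, read 743 in the knockout against 1756 in the wild type, 2.40-fold lower. With sex chromosome genes left out, no gene of the list was called and the median was -0.17. Of the other 4, Vim, the vimentin gene, read 2363 against 4251 (log2 difference -0.87, with all 3 passing probe sets lower) and Hmox1, the heme oxygenase gene, 710 against 944 (-0.43), while Ccnd1 (0.09) and Plaur (0.18) lay above 0. The other 7 measured targets did not pass the filter.

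The labelled cell type carried its markers, with 8 of 8 ES cell markers past the filter on these arrays. Their median log2 difference was -0.25, and 3 of the 8 were above 0. Only 1 of them, Nanog, was at least 2-fold lower (2195 in the knockout against 5423 in the wild type). Because Ccn1, Ccn2 and the actin genes are also abundant in fibroblasts, fibroblast markers are given beside them. Of 9 measured markers 2 passed the filter (Col1a2 and Thy1) and neither of these was past 2-fold. The summed intensity of all 9, with the 7 below the filter included, was 804 in the knockout against 762 in the wild type. Col1a2 read 199 against 194 and Thy1 193 against 276 (log2 difference -0.54). Below the filter, Col1a1 read 133 against 83.0 and Dcn 71.9 against 18.1, both higher in the knockout, and Col3a1 read 38.3 against 69.0. Postn, Pdgfra and Pdgfrb were under the floor on both arrays. Of 3 blood markers, Cd68 passed and was not past 2-fold (177 against 323, log2 difference -0.90), Ptprc was under the floor on both arrays and Hba-a1 read 23.0 against 105. Immediate early genes also respond to handling and stress, for which heat shock genes were read. Of 6 passing heat shock genes none was higher and 1, Hspb1, was lower (7669 against 20548, 2.72-fold), with a median of -0.01. Second probe sets did not all follow: the stress-inducible Hspa1b had a log2 difference of -0.24 with the probe set used and 1.18 with its other passing one (315 against 137), and the 4 probe sets of Hspa8 ran from -0.06 to 0.83. The part of either in the values above was not tested.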

How the data were processed

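Total RNA of 1 Id1 knockout and 1 wild-type ES culture was labelled with biotin and hybridised to 1 array each, per the labels' protocols. The authors deposited a linear intensity for each probe set. Which software made the values is not given in the sources used here. A trimmed mean (2% left out at either end) was 500.2 on both arrays, so the deposited intensities share a scale. The arrays, 1 per genotype, limit the precision.

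From the 22690 probe sets, 64 controls were left out. The 2016 platform annotation gave 1 gene for 20380, several for 691 and none for 1555. Intensities were converted to log2, centred on the array median, which removed a shift of 0.02, and floored at the 25th percentile. Where 1 array was at the floor, the fold is a bound. List genes were matched by gene ID, and 196 of 219 entries in 16 lists were measured. The members, lists and rules were chosen with earlier results of these data known. Genes named were all members, Id1, the genes past 2-fold in each list (up to 4 in each direction) and every gene of lists with at most 6 measured; others were chosen after their values were seen. Chromosomal neighbours and promoter motifs were descriptive. The procedure was tested on simulated data. Python 3.11.15, pandas 2.3.3 and statsmodels 0.14.6 were used.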

Additional observations from a re-analysis of the deposited data

How the results depend on the processing

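Over 10 alternative settings, 523 of 554 alternative values stayed the same by the rule used (within 0.22 on the log2 scale, or within 1.5 times for a count), 31 moved and none called in either direction reversed. Part of this was fixed in advance, since removing the centring shifts differences by about 0.02 and none of the 10 genes lies on X or Y. The share that stayed the same is therefore not a measure of stability. Ccn1 (1.41 to 1.51), Ccn2 (1.64 to 1.70), Zfp36 (1.13 to 1.23), Egr1 (0.22 to 0.26) and Ier2 kept log2 differences in these ranges wherever they passed. Jun moved to 0.93 with the mean of its probe sets, and Jdp2 to -1.58 with the floor at the 40th percentile and -2.09 with a pseudocount of 16 in place of a floor. With the filter at the 75th percentile, 4 of the 10 genes passed, 2 were called higher (Ccn1 and Ccn2) and 0 lower, and over all genes 118 were higher and 131 lower; fewer genes enter there. Without a brightness filter 435 genes were higher and 443 lower, against 289 each way. With X and Y genes left out, 280 genes were higher and 238 lower, so sex chromosome genes were more frequent among the lower calls. A difference between the cultures in their sex chromosomes was not tested. No paired analysis was possible because there was 1 array per genotype, and no replicate could be left out. The number of arrays, and signals near the floor for Jdp2, Atf3 and Fosb, limit what these values show.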

Other observations

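The chromosomal neighbours of the 10 genes were read as well, taking the 5 nearest genes on the array on each side, a choice made after the data were seen. Of 90 such neighbours, 53 were bright enough to count, and 2 of them were called higher and 1 lower, together 5.66%, against 7.84% of all genes past the filter, and the median log2 difference was 0.16. Both neighbours that were higher lay beside Ccn2 on chromosome 10. Enpp3, an ectonucleotide pyrophosphatase gene, read 1036 in the knockout against 446 in the wild type (log2 difference 1.19). Moxd1, a monooxygenase gene, read 183 against 85.5 (log2 difference 1.07) and passed the filter through the knockout array alone. Med23, on the far side of Enpp3, had a log2 difference of 0.44.

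Fos, Jdp2 and Batf are consecutive genes of the array on chromosome 12. Batf read 29.6 in the knockout against 13.8 in the wild type, under the floor on both arrays, and Fos differed by -0.10 on the log2 scale. Flvcr2, the next gene, read 18.0 in the knockout, under the floor, and 118 in the wild type and did not pass the filter. Farther along the same side, Esrrb, a nuclear receptor of naive ES cells, read 619 against 1669 (log2 difference -1.46). On the other side of Fos, Tmed10 differed by 0.05 and Nek9 by 0.45.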
